A study of Mus musculus with 5 samples.

Results

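The R-spondins Rspo1, Rspo2, Rspo3 and Rspo4, their receptors Lgr4, Lgr5 and Lgr6, and the membrane ubiquitin ligases Rnf43 and Znrf3 were examined for the repressive histone mark H3K27me3 in dermal fibroblasts that had lost the demethylase Kdm6b. The genes were chosen by name, as the ligands, receptors and ligases of 1 signalling module, though with earlier results of these data known. They are 9 of the 21728 protein-coding genes that the GENCODE M21 annotation places on the autosomes and the X chromosome. Each gene was described by the length of DNA inside H3K27me3 peaks within 3 kb and within 25 kb on either side of its transcription start site (TSS), a covered length out of 6 kb and 50 kb.

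R-spondins are secreted proteins that strengthen Wnt signalling. An R-spondin bound to Lgr4, Lgr5 or Lgr6 engages Rnf43 or Znrf3, ligases that otherwise take Frizzled receptors off the cell surface, so that more Frizzled remains to receive Wnt. In skin, Lgr5 and Lgr6 are known as markers of hair follicle stem cells, and R-spondins are known as signals from the dermal cells around the follicle. H3K27me3 is placed by Polycomb repressive complex 2 on silenced genes, often over broad stretches, and Kdm6b, also called Jmjd3, takes it off.

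The Kdm6b-cKO group carried Kdm6b fl/fl alleles and a Dermo1Cre driver (Twist2-Cre), which acts in embryonic dermal fibroblasts and other mesenchyme, and the WT group is described only as wild type, with no statement on floxed alleles or Cre in these libraries. The mice were on a C57BL/6 background and the cells came from skin at E18.5, shortly before birth, and were expanded in AmnioMAX medium. H3K27me3 ChIP-seq gave a list of broad peaks for each of 4 libraries, 2 of Kdm6b-cKO (replicates 3 and 4) and 2 of WT (replicates 7 and 9), and the series' input was left aside. The labels describe a sort for GFP as a sign of the conditional knockout for all samples, WT included, and do not say whether replicates came from separate embryos, so that p-values measure only the spread between these libraries.

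The lists held 44077 and 40565 peaks over 148.3 and 123.9 Mb in the Kdm6b-cKO libraries, against 29841 and 22597 peaks over 91.4 and 61.5 Mb in the WT libraries. WT replicate 9 held the fewest peaks, and the median gene tested within 25 kb had 6.94 and 5.87 kb covered in the Kdm6b-cKO libraries, against 3.84 and 2.06 kb in the WT libraries. The methods describe subsampling of the libraries to 1 common read depth before peak calling, and the lists hold no read counts, so that the depth behind a single peak cannot be given. A wider list covers more of most genes. The differences below are therefore to be read beside the median over all genes tested. With whole lists that median was 0.703 kb within 3 kb and 2.41 kb within 25 kb. Peak lists hold no expression, so the cell type was not tested. None of the promoters of 12 fibroblast markers had 500 bp of the mark within 3 kb in any library. Those of 5 of 7 keratinocyte, 1 of 4 endothelial, 2 of 5 melanocyte and 2 of 4 immune markers did in at least 1. So did 6251 of all 21728 genes. The start site of Kdm6b itself had no mark within 3 kb, and 2.79 and 4.40 kb within 25 kb in the Kdm6b-cKO libraries, against 0 kb in both WT libraries.

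The promoters of the module differ in CpG content and in whether the mark lies on them. The 250 bases before the start site are given for Rspo1, Rspo4 and Lgr6, where peaks covered every base in all 4 libraries, and for Lgr4, where peaks covered none in any library. They were taken from RefSeq (GRCm38.p6), which also held Rnf43, and 5 of the 9 genes had an entry, Rspo2, Rspo3, Lgr5 and Znrf3 having none in the table used. They run 5′ to 3′ on the strand of the gene, and capitals mark CpG dinucleotides.
Rspo1, chr4:124986180-124986429, + strand: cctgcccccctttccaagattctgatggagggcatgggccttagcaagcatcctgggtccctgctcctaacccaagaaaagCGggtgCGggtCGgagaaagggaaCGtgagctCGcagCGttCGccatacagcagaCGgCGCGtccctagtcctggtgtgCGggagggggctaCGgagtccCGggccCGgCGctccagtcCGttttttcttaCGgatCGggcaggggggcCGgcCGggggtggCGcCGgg
Rspo4, chr2:151842677-151842926, + strand: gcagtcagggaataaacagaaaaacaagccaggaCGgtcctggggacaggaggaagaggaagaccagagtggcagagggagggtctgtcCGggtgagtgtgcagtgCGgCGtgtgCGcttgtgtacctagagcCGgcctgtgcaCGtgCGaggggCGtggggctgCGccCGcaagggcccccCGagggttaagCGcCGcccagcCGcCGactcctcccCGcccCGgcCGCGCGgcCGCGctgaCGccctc
Lgr6, chr1:135105277-135105526, - strand: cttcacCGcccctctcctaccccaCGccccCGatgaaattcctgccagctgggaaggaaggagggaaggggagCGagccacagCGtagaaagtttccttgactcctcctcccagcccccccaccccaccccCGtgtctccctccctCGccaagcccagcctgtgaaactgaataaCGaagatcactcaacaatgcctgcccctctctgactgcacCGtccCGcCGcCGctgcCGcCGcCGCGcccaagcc
Lgr4, chr2:109917397-109917646, + strand: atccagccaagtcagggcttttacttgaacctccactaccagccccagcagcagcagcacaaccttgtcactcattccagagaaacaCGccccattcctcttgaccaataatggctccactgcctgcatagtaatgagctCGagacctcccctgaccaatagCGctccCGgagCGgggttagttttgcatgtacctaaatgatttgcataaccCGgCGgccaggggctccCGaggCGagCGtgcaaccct
The stretch before Rspo4 held 24 CpG, that before Rspo1 22, that before Lgr6 16 and that before Lgr4 10, against a median of 6 over all 32619 promoters of the table. Within 1 kb on either side of the TSS, CpG density was 64.5 per kb at Rspo1, 62.5 at Lgr4, 40 at Lgr6 and 36.5 at Rspo4, against medians of 38.5 per kb over the 3292 genes with at least 500 bp covered in every library and 30.5 over the 14879 genes with no base covered. Lgr4, free of the mark, and Rspo1, covered throughout, thus had nearly the same density of CpG. Znrf3 had the highest of the 9, at 99 per kb, and little of the mark. A search of both strands for the TCF/LEF core CTTTGA, which lies in 13.9% of all promoters of the table, and for the EBF motif, which lies in 0.782%, matched none of the promoters of the 5 genes.

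Within 3 kb of the start sites, Rspo1, Rspo4 and Lgr6 were the most covered genes in both genotypes, Lgr4 had no mark, and Lgr5 had it in the Kdm6b-cKO libraries alone. Of the 9 genes, 8 passed the filter of at least 500 bp covered in at least 1 library, and none passed the test in either direction (limma on the covered length over 6251 genes, Benjamini-Hochberg adjusted p under 0.05). At an unadjusted p under 0.05 by limma 1 of them, Lgr5, was higher, as were 1599 of the 6251 genes tested. Over all genes tested, 7.93% passed as higher and 0.096% as lower in Kdm6b-cKO. In 4 of the 8 genes both Kdm6b-cKO libraries lay above both WT libraries and in none below, against 49% and 2.42% of all genes tested. The median difference of the 8 genes was 1.25 kb, beside 0.703 kb over all genes tested.

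**Figure D1:**
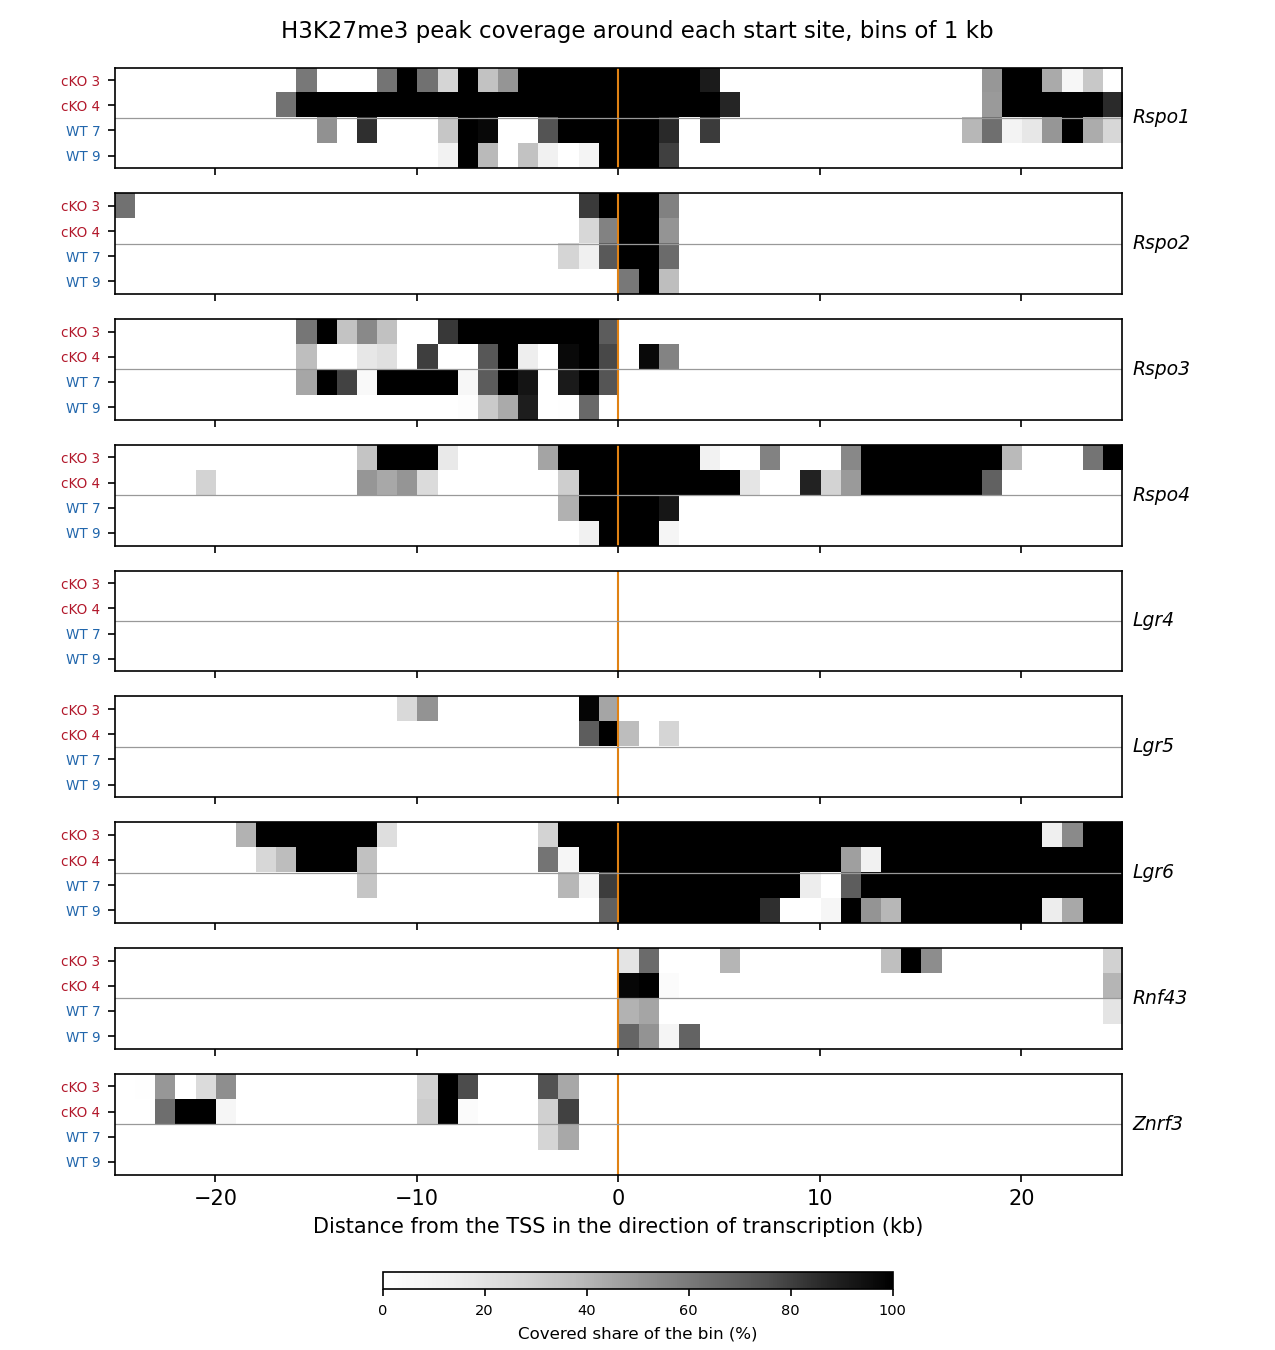
Covered share of each 1 kb bin (grey scale, %) from 25 kb upstream to 25 kb downstream of the TSS of the 9 genes, with 1 row per library, Kdm6b-cKO replicates 3 and 4 above WT replicates 7 and 9 and the TSS as an orange line. The mark sits over the TSS of Rspo1, Rspo4 and Lgr6 in every library and over that of Rspo2 in all but WT replicate 9, extends downstream of the Rspo4 start in Kdm6b-cKO, and is missing around Lgr4.

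Within 25 kb, again 8 of the 9 genes passed the filter. Rspo4 passed the test as higher in Kdm6b-cKO and none passed as lower, where 7.69% and 0% of 11829 genes did. In 6 of the 8 genes both Kdm6b-cKO libraries lay above both WT libraries and in none below, against 65.3% and 1.67% of all genes tested, so the shares of the module were near those of all genes. Their median difference was 3.51 kb, beside 2.41 kb over all genes tested. The difference exceeded that of 95.98% of all genes tested at Rspo4, 93.8% at Rspo1, 88.3% at Lgr6 and 67.8% at Znrf3. At Rspo3 it exceeded that of 51.5%, at Lgr5 48.1%, at Rnf43 35.8% and at Rspo2 34.1%. With 2 libraries per genotype, a two-sided exact permutation test over the 6 arrangements of a single gene cannot go below p = 0.33. The summed covered length of the 4 R-spondins was 55.8 and 58.6 kb in the Kdm6b-cKO libraries, against 35.3 and 13.3 kb in the WT libraries. That of the 3 Lgr receptors was 35.8 and 32.6 kb, against 24.5 and 20.1 kb. That of both ligases was 7.91 and 7.53 kb, against 1.76 and 1.94 kb, with differences of 4.46 kb at Znrf3 and 1.41 kb at Rnf43. The Kdm6b-cKO lists covered on average 1.78 times the length of the WT lists, and no sums of other genes were set beside these.

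**Figure D2:**
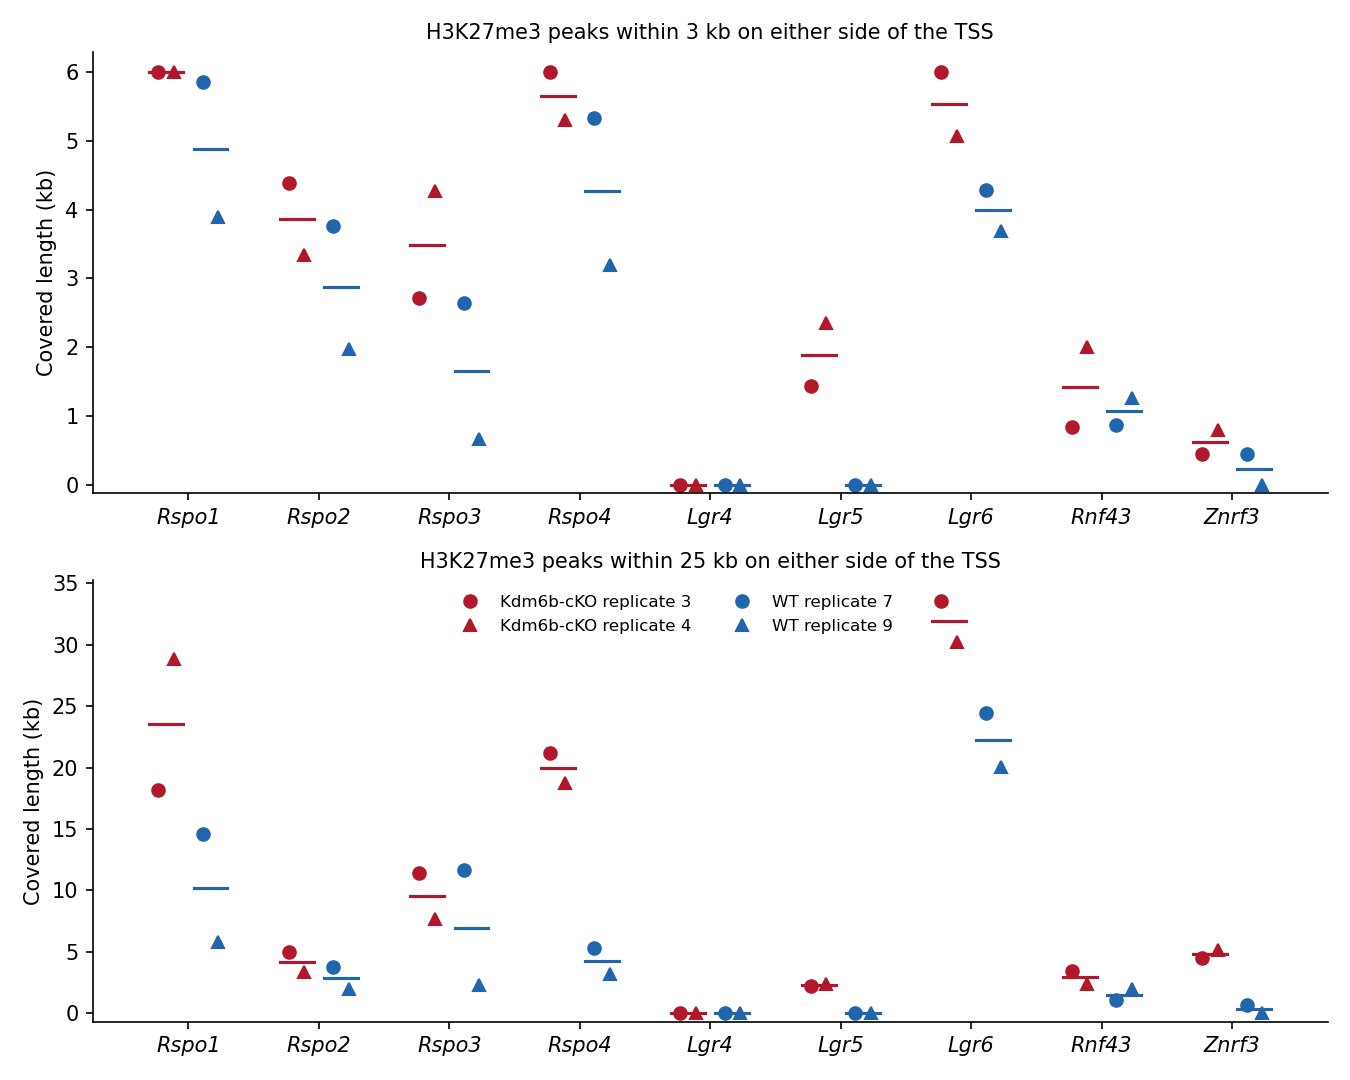
Covered length in kb of each gene in each library, within 3 kb (top) and 25 kb (bottom) of the TSS, with Kdm6b-cKO in red left of WT in blue and a line at the mean of each genotype. Within 25 kb the Kdm6b-cKO libraries of Rspo4 lie at 21.2 and 18.8 kb, apart from the WT libraries at 5.34 and 3.20 kb.

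Rspo4 (ENSMUSG00000032852.3, chromosome 2, 151842927 to 151874668 in mm10, plus strand) encodes the R-spondin whose loss in humans leaves the nails unformed. Within 3 kb of its TSS the mark covered 6 and 5.30 kb in the Kdm6b-cKO libraries, against 5.34 and 3.20 kb in the WT libraries, and the genotypes overlapped (difference 1.38 ± 0.996 kb, SE, adjusted p = 0.533 by limma). Within 25 kb it covered 21.2 and 18.8 kb in the Kdm6b-cKO libraries, against 5.34 and 3.20 kb in the WT libraries. Both Kdm6b-cKO libraries were far above both WT libraries, with means of 19.97 ± 1.71 kb in Kdm6b-cKO and 4.27 ± 1.51 kb in WT (SD, n = 2 each), a ratio of 4.68. The difference of 15.7 ± 1.38 kb (SE, adjusted p = 0.0327 by limma) was larger than that of 95.98% of all genes tested.

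The added length of Rspo4 lay mostly inside the gene. Downstream of the TSS, 14.2 and 14.5 kb were covered in the Kdm6b-cKO libraries, against 2.92 and 2.08 kb in the WT libraries, and upstream 6.96 and 4.25 kb, against 2.41 and 1.12 kb. In Kdm6b-cKO the peak over the TSS was 7.56 kb long in replicate 3 and 8.48 kb in replicate 4, and a separate peak ran from 11.5 to 19.4 kb past the TSS in replicate 3 and from 11.5 to 18.7 kb in replicate 4. Within 25 kb each WT library had 1 peak, the one over the TSS, of 5.34 kb in replicate 7 and 3.20 kb in replicate 9. Of the 24.8 kb covered in any library, 9.88 kb were covered in both Kdm6b-cKO libraries and neither WT library, and 0 kb in both WT libraries and neither Kdm6b-cKO library.

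The peaks inside Rspo4 were weaker than the one over its TSS. MACS2 gave the TSS peak a −log10 q, averaged over the peak, of 7.73 and 7.03 in the Kdm6b-cKO libraries, above those of 96.1% and 95.2% of the peaks in the same list, against 3.35 and 4.21 in the WT libraries, above 60.8% and 85.7%. The separate intragenic peak had 3.42 in Kdm6b-cKO replicate 3 and 2.91 in replicate 4, above 65.4% and 48.2% of their lists. When each list was trimmed from its weakest peaks to the length of the shortest, Rspo4 kept 7.56 and 8.48 kb in the Kdm6b-cKO libraries, against 0 and 3.20 kb in the WT libraries (difference 6.42 kb, adjusted p = 0.117 by limma). Its adjusted p was also 0.153 without Kdm6b-cKO replicate 3, 0.113 without Kdm6b-cKO replicate 4 and 0.112 without WT replicate 9, with differences of 14.5, 16.9 and 14.6 kb, and ranged over all alternatives between 6.94e-05 and 0.153.

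Rspo1 (ENSMUSG00000028871.7, chromosome 4, 124986430 to 125009099 in mm10, plus strand) was named by the study on these samples, so its direction is not independent evidence. Within 25 kb it had 18.2 and 28.8 kb covered in the Kdm6b-cKO libraries, against 14.6 and 5.84 kb in the WT libraries. The genotypes did not overlap, yet WT replicate 7 lay nearer to Kdm6b-cKO replicate 3 than to WT replicate 9. Means were 23.5 ± 7.53 kb in Kdm6b-cKO and 10.2 ± 6.18 kb in WT (SD, n = 2 each), and the difference of 13.3 ± 5.27 kb (SE) did not pass the test (adjusted p = 0.184 by limma), although it was larger than that of 93.8% of all genes tested. Within 3 kb the window was full in both Kdm6b-cKO libraries, which bounds the difference of 1.13 ± 0.872 kb (SE, adjusted p = 0.533 by limma).

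The mark at Rspo1 was spread over both sides of the TSS. The peak over the TSS was 10.4 and 22.5 kb long in the Kdm6b-cKO libraries, against 6.60 and 3.89 kb in the WT libraries. In Kdm6b-cKO replicate 4 it ran without a gap from 16.6 kb upstream to 5.87 kb downstream, where replicate 3 had 4 separate peaks. All 4 libraries shared 5.34 kb within 25 kb, and 8.003 kb were covered in both Kdm6b-cKO libraries and neither WT library.

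Rspo2 and Rspo3, the R-spondins best known for roles in the limb and in blood vessels and placenta of the mouse, differed less. Rspo2 (ENSMUSG00000051920.7, chromosome 15, 43020794 to 43170826, minus strand) had 5.02 and 3.34 kb covered within 25 kb in the Kdm6b-cKO libraries, against 3.77 and 1.97 kb in the WT libraries, so WT replicate 7 lay between the Kdm6b-cKO libraries (difference 1.31 ± 1.13 kb, SE, adjusted p = 0.468 by limma). Most of it was 1 narrow peak of 4.39 and 3.08 kb in the Kdm6b-cKO libraries, against 3.37 and 1.97 kb in the WT libraries. It lay over the TSS, except in WT replicate 9, where it began 0.399 kb from it. That peak stood above 94.4% and 91.2% of the peaks of the Kdm6b-cKO lists, against 96.4% and 87.0% of the WT lists, by its −log10 q. Rspo2 was thus a narrow and strongly called peak in both genotypes.

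Rspo3 (ENSMUSG00000019880.10, chromosome 10, 29452416 to 29535867, minus strand) had its mark upstream of the TSS. Within 25 kb, 11.4 and 7.69 kb were covered in the Kdm6b-cKO libraries, against 11.6 and 2.33 kb in the WT libraries, and WT replicate 7 was the highest of the 4 (difference 2.56 ± 3.85 kb, SE, adjusted p = 0.663 by limma). The nearest peak lay 0.292 and 0.223 kb from the TSS in the Kdm6b-cKO libraries, against 0.264 and 1.34 kb in the WT libraries. Downstream, 1.53 kb were covered in Kdm6b-cKO replicate 4 and 0 kb in the other libraries. Without WT replicate 9 the difference fell to -2.09 kb, and with lists of equal covered length it was -1.12 kb, so no direction is given for Rspo3.

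Among the receptors, Lgr6 was the most covered of all 9 genes within 25 kb, Lgr5 was marked in Kdm6b-cKO alone and Lgr4 was not marked. Lgr6 (ENSMUSG00000042793.13, chromosome 1, 134983301 to 135105276, minus strand) had 33.6 and 30.3 kb covered within 25 kb in the Kdm6b-cKO libraries, against 24.5 and 20.1 kb in the WT libraries. The genotypes did not overlap, with means of 31.9 ± 2.34 kb in Kdm6b-cKO and 22.3 ± 3.10 kb in WT (SD, n = 2 each), and the difference of 9.64 ± 2.18 kb (SE) did not pass the test (adjusted p = 0.0840 by limma). It passed when each library was centred on its own mean over all genes tested (adjusted p = 0.0287 by limma, with the range 0.0287 to 0.347 over its alternatives). Downstream of the TSS, in the gene, coverage was nearly complete, at 23.7 and 23.6 of 25 kb in the Kdm6b-cKO libraries, against 22.8 and 19.4 kb in the WT libraries. Upstream, 9.90 and 6.68 kb were covered in the Kdm6b-cKO libraries, against 1.62 and 0.691 kb in the WT libraries. Most of the difference within 25 kb thus lay before the gene, where the window was not yet full. Over the whole gene, past that window, 83.6 and 73.2 kb were covered in the Kdm6b-cKO libraries, against 71.9 and 51.7 kb in the WT libraries.

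Lgr5 (ENSMUSG00000020140.15, chromosome 10, 115450311 to 115587780, minus strand), known as a marker of stem cells in hair follicle and gut, had 1.43 and 2.34 kb covered within 3 kb of its TSS in the Kdm6b-cKO libraries, against 0 kb in both WT libraries. The peak nearest the TSS was 1.43 kb long and wholly upstream in Kdm6b-cKO replicate 3, and 2.08 kb long and across the TSS in replicate 4. The nearest peak of the WT libraries was 311.7 kb away in replicate 7 and 320.0 kb away in replicate 9. The difference of 1.89 ± 0.405 kb (SE) did not pass the test with all 4 libraries (adjusted p = 0.134 by limma, and 0.694 with no filter). It was 2.34 kb without Kdm6b-cKO replicate 3 and 1.43 kb without replicate 4. In both of those fits the gene's own spread came only from the WT libraries, both at 0 kb, so passing there carries no weight. Within 25 kb the difference of Lgr5 was 2.27 ± 0.642 kb (SE, adjusted p = 0.112 by limma), below the median of 2.41 kb over all genes tested. Lgr5 passed the filter through the Kdm6b-cKO libraries alone. With lists trimmed to equal covered length no peak was left within 25 kb of Lgr5 in any library. The start site of A930009A15Rik, 17.8 kb from that of Lgr5, was the only other protein-coding start site within 25 kb of any of the 9.

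Lgr4 (ENSMUSG00000050199.13, chromosome 2, 109917647 to 110014257, plus strand), the most widely expressed of the receptors, had 0 kb covered within 25 kb and over its whole length in all 4 libraries. Its nearest peak was 230.3 and 240.0 kb away in the Kdm6b-cKO libraries, against 241.4 kb in both WT libraries. Lgr4 alone passed the filter in neither window, and it was not tested.

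The ligases Rnf43 and Znrf3 had little of the mark at their start sites. Rnf43 (ENSMUSG00000034177.15, chromosome 11, 87662722 to 87735539, plus strand) had 0.843 and 2.001 kb covered within 3 kb in the Kdm6b-cKO libraries, against 0.863 and 1.26 kb in the WT libraries, and the genotypes overlapped (difference 0.359 ± 0.543 kb, SE, adjusted p = 0.727 by limma). Within 25 kb it had 3.42 and 2.40 kb in the Kdm6b-cKO libraries, against 1.05 and 1.94 kb in the WT libraries, all downstream of the TSS (difference 1.41 ± 0.820 kb, SE, adjusted p = 0.312 by limma). This difference turned to -0.830 kb with lists of equal covered length, so no direction is given for the start site of Rnf43. Rnf43 has 4 annotated start sites, and around the one most covered within 25 kb, at 87699897, the difference was 14.9 ± 2.95 kb (SE, adjusted p = 0.0707 by limma), which moved the median of the 8 genes to 7.05 kb. That setting takes the most covered start site of every gene, so 7.05 kb is not comparable with the 2.41 kb over all genes.

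Znrf3 (ENSMUSG00000041961.14, chromosome 11, 5276324 to 5444847, minus strand) had 4.49 and 5.13 kb covered within 25 kb in the Kdm6b-cKO libraries, against 0.709 and 0 kb in the WT libraries. All of it lay upstream of the TSS, as 4 peaks in Kdm6b-cKO replicate 3 and 3 in replicate 4, and the genotypes did not overlap. Means were 4.81 ± 0.451 kb in Kdm6b-cKO and 0.355 ± 0.501 kb in WT (SD, n = 2 each), and the difference of 4.46 ± 0.735 kb (SE) did not pass the test (adjusted p = 0.0570 by limma). With lists of equal covered length 1.19 and 0 kb were left in the Kdm6b-cKO libraries, against 0 kb in both WT libraries.

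**Figure D3:**
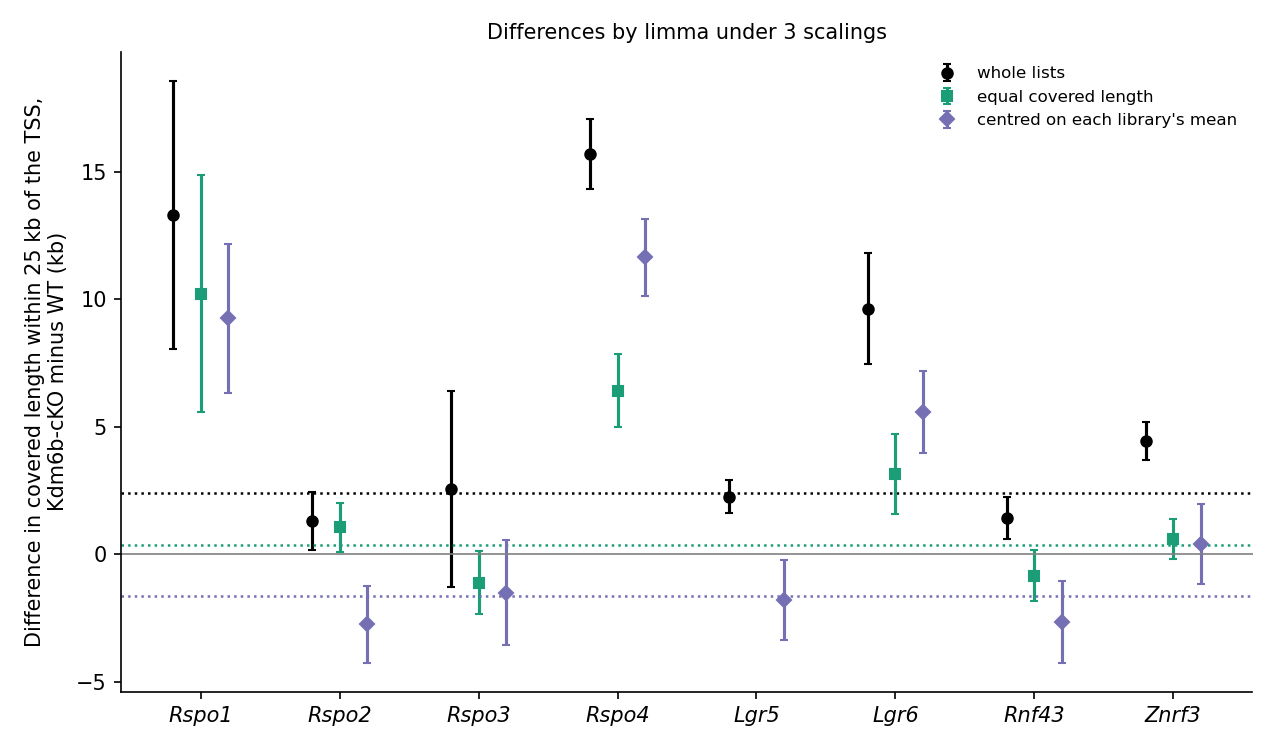
Difference in covered length within 25 kb of the TSS in kb, Kdm6b-cKO minus WT, with its SE from limma, for the 8 genes with any mark, from whole lists (black), lists of equal covered length (green) and values centred on the mean of each library (purple), with dotted lines at the median over all genes tested. Rspo1, Rspo4, Lgr6 and Znrf3 stay above 0 in all 3 scalings, Rspo2, Rspo3, Lgr5 and Rnf43 fall below it in at least 1, and Lgr5 has no value at equal covered length. At equal covered length and after centring, Znrf3 lies above 0 by less than its SE.

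The ratio of covered genome between the genotypes bears on all these differences. The Kdm6b-cKO lists covered on average 1.78 times the length of the WT lists, and at equal covered length the median difference over all genes tested within 25 kb was 0.359 kb, beside 2.41 kb with whole lists. Relative to that median, Rspo1 and Rspo4 remained the largest differences of the 9, with 10.4 and 22.5 kb at Rspo1 in the Kdm6b-cKO libraries, against 6.60 and 5.84 kb in the WT libraries. At Rspo4 only the peak over the TSS was left in the Kdm6b-cKO libraries, at 7.56 and 8.48 kb. WT replicate 7 lost its own TSS peak and fell to 0 kb. The difference left at Rspo4 is therefore not the intragenic one seen with whole lists. Lgr6 kept 24.4 and 25.7 kb in the Kdm6b-cKO libraries, against 23.7 and 20.1 kb in the WT libraries. With values centred on each library's mean, Rspo1 (adjusted p = 0.0453 by limma, range 0.0453 to 0.550), Rspo4 and Lgr6 passed as higher and none of the 9 as lower, where 1430 of all 11829 genes tested passed as higher and 407 as lower.

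The length of the genes was described after the data were seen and without a test. With whole lists, Rspo4 and Rnf43 had the largest differences of the 9. Rspo4 had 66.0% and 66.7% of its 31.7 kb covered in the Kdm6b-cKO libraries, against 12.3% and 6.56% in the WT libraries. Peaks touched 5 and 4 of its 5 exons in the Kdm6b-cKO libraries, against 2 and 1 in the WT libraries, and most of the covered length was intronic, at 18.6 and 19.0 kb, against 3.28 and 1.86 kb. The difference of 56.9 percentage points was larger than that of 94.6% of the 6254 genes with at least 500 bp covered in the gene, whose median difference was 7.29 points. It was 12.9 points with lists of equal covered length and 23.4 points with peaks of −log10 q of at least 4.

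Rnf43, with little mark near its start, had 43.1% and 43.7% of its 72.8 kb covered in the Kdm6b-cKO libraries, against 18.9% and 8.03% in the WT libraries. In kb this was 31.4 and 31.8 in Kdm6b-cKO, against 13.7 and 5.85 in WT, and peaks touched 9 of its 11 exons in both Kdm6b-cKO libraries, against 3 and 4 in the WT libraries. The genotypes did not overlap, and the difference of 29.9 points was larger than that of 80.8% of the genes. It was 11.3 points with lists of equal covered length. Most of it lay past the windows around the TSS, since only 3.42 and 2.40 kb of it fell within 25 kb in the Kdm6b-cKO libraries, against 1.05 and 1.94 kb in the WT libraries.

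Rspo1 had 34.6% and 44.2% of its length covered in the Kdm6b-cKO libraries, against 27.1% and 12.3% in the WT libraries, and Lgr6 had 68.6% and 60.01%, against 59.0% and 42.4%. At Rspo1 the difference of 19.7 points was 11.3 points with lists of equal covered length. At Lgr6 the difference of 13.6 points turned to -2.73 points with lists of equal covered length, so its gene body gives no direction. With peaks of −log10 q of at least 4 the difference of Lgr6 was 34.2 points, above the 29.3 points of Rnf43. The median over all genes was taken with whole lists only. Rspo2 and Rspo3 had under 2% covered in each library, Lgr5 0.466% in Kdm6b-cKO replicate 4 and 0% elsewhere, and Lgr4 and Znrf3 0% in all. Of the 7 genes over the filter in the gene, 4 had both Kdm6b-cKO libraries above both WT libraries, against 63.1% of all genes over that filter.

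**Figure D4:**
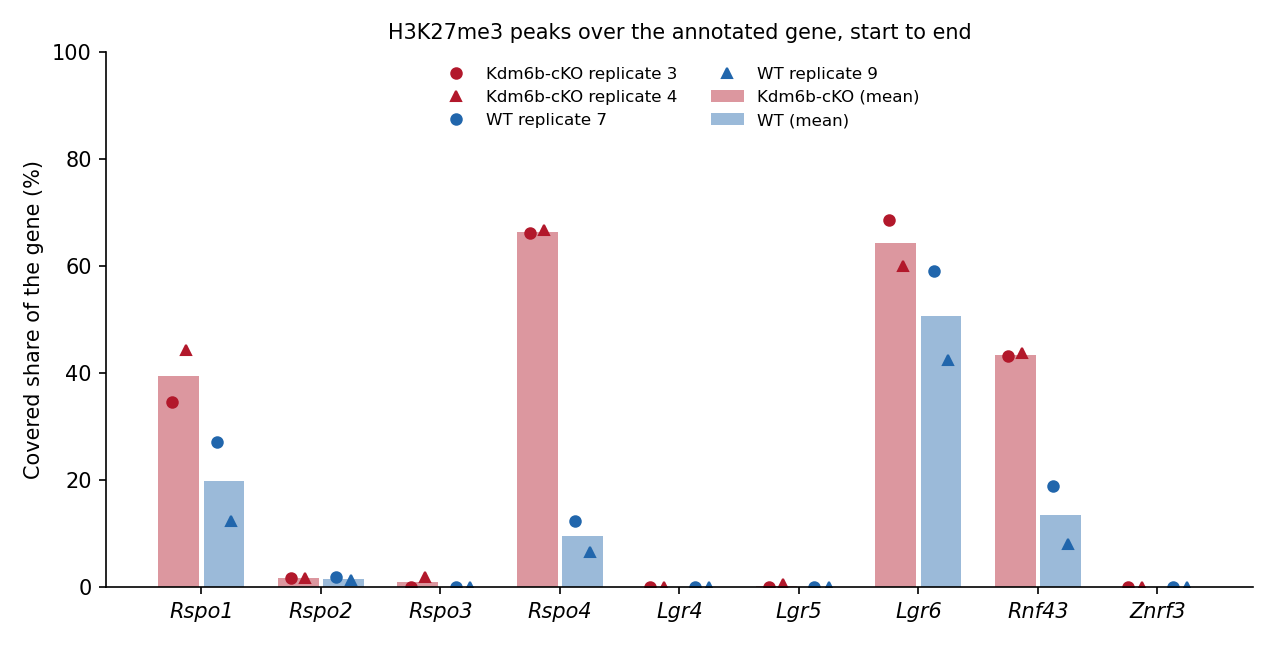
Covered share of each gene from start to end (%) in Kdm6b-cKO (red, left) and WT (blue, right), with bars at the mean of 2 libraries and points for the libraries. Rspo4 and Rnf43 show the widest gaps between genotypes, and Lgr6 is largely covered in both.

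The other genes of Wnt signalling give the setting of the module. Over all 11829 genes tested within 25 kb, 7.69% passed the test as higher, and 3993 were higher at an unadjusted p under 0.05 by limma. Of 19 Wnt ligands all passed the filter within 25 kb and 3 passed the test as higher, with a median difference of 7.37 kb beside 2.41 kb over all genes. They were Wnt4, which acts in kidney, gonad and skin, with 9.40 and 8.55 kb in the Kdm6b-cKO libraries, against 1.54 and 0 kb in the WT libraries (adjusted p = 0.0389 by limma), Wnt8b (adjusted p = 0.0435) and Wnt7b (adjusted p = 0.0498). Of 16 receptors and co-receptors 9 passed the filter and 2 the test, namely Fzd9, a Frizzled, with 19.4 and 18.7 kb, against 5.68 and 2.52 kb (adjusted p = 0.0340 by limma), and Ror2, a receptor of Wnt5a, with 13.7 and 12.2 kb, against 5.99 and 5.32 kb (adjusted p = 0.0418 by limma). Of 17 secreted and surface antagonists 12 passed the filter and 0 the test by limma (4 higher at an unadjusted p under 0.05), with a median difference of 3.82 kb.

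Of 8 targets of the pathway, 6 passed the filter and 2 the test, which 7.69% of all genes tested passed as higher. Axin2, the feedback scaffold of β-catenin destruction, had 13.9 kb in each Kdm6b-cKO library, against 3.75 and 2.83 kb in the WT libraries (adjusted p = 0.0290 by limma). Tcf7, a transcription factor that works with β-catenin, had 20.8 and 22.4 kb in the Kdm6b-cKO libraries, against 9.66 and 5.27 kb in the WT libraries (adjusted p = 0.0456 by limma). Of 5 other leucine-rich repeat G protein-coupled receptors, the relatives of the Lgr genes, 2 passed the filter and 1 the test, the luteinizing hormone receptor Lhcgr (8.39 and 9.18 kb in the Kdm6b-cKO libraries, against 1.45 and 1.06 kb in the WT libraries, adjusted p = 0.0348 by limma). Of 9 other ligases of the family of Rnf43, 6 passed the filter and 0 the test by limma (2 higher at an unadjusted p under 0.05). With whole lists none of the genes of these lists passed as lower within 25 kb, nor did any at an unadjusted p under 0.05 by limma, while after centring on each library's mean 1 receptor, 1 antagonist and 1 ligase passed as lower. At equal covered length 0 genes of these lists passed in either direction within 25 kb. Nor did the calls within 25 kb hold without Kdm6b-cKO replicate 3, Kdm6b-cKO replicate 4 or WT replicate 9. Within 3 kb, 1 of the other leucine-rich repeat receptors passed as higher at equal covered length.

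The genes whose covered bases within 25 kb most resembled those of a member were found by the Jaccard index, the shared covered bases over all covered bases, in the 4 libraries together, among 11820 to 11828 genes. Lgr6 had the closest match, Slc17a7 (0.794), and Rspo2 the next, Acta1 (0.730). Rspo4 was most like Ptgis (0.575), Rspo1 most like Abcc8 (0.560), Rspo3 most like Zfp664 (0.493) and Rnf43 most like St6galnac3 (0.378). The index is a description of where peaks lie around a start site.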

How the data were processed

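The authors precipitated chromatin of the fibroblasts with an H3K27me3 antibody and sequenced it. Per the submitters' processing notes, the tools were MACS2 (2.2.7.1), Bowtie2 (2.3.5.1), deepTools (3.5.1), SAMtools (1.9) and bcl2fastq, and the build was mm10. According to the methods, libraries were subsampled to 60000000 reads each and broad peaks were called for each at q 0.01, but whether the input was used in calling is not given in the sources used here. The lists as deposited give the positions of each peak with a display score, the fold ratio over background, and p and q as −log10 values, all from the authors' caller.

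Covered length is the number of bases of a window inside peaks. It was compared over all protein-coding genes with at least 500 bp covered in at least 1 of 4 libraries, with limma 3.58.1 (R 4.3.3), 2 libraries per genotype and no covariates; the fit shares the spread across genes. limma is built for unbounded values, and covered length is bounded by 0 and the window. Alternatives were equal covered length, an equal number of peaks, −log10 q of at least 4, centring, other filters (1 bp, 2000 bp, none), other windows (1 and 50 kb), the most covered start site and each library left out. Python 3.11.15, numpy 2.4.6, pandas 2.3.3 and matplotlib 3.10.9 were used, and the limma step was tested on simulated data.

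Every gene of the module is named, with at most 3 genes of each other list (those past the threshold within 25 kb with the smallest adjusted p), the most alike gene, neighbours and Kdm6b. The genes and lists were chosen with earlier results of these data known.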

Additional observations from a re-analysis of the deposited data

How the results depend on the processing

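No paired analysis was possible because the replicate numbers 3 and 4 of Kdm6b-cKO and 7 and 9 of WT are not shared. A library left alone in its genotype was assumed to vary like the other pair. Within 3 kb, 496 genes passed as higher with whole lists, 133 with equal covered length, 314 with a filter of 2000 bp, 127 with no filter and 0 to 1355 with a library left out, and 0 of these without WT replicate 9, where 1096 were higher at an unadjusted p under 0.05. As lower, 6 passed with whole lists, 78 with equal covered length, 16 with an equal number of peaks, 11 with the stricter q, 58 after centring, 1 with no filter and 0 to 62 with a library left out. Within 25 kb, 910 passed as higher, against 68 with equal covered length, 354 with an equal number of peaks, 1430 after centring, 178 with no filter and 0 to 1539 with a library left out, and 0 of these without WT replicate 9, where 2457 did at an unadjusted p under 0.05. As lower, 0 passed with whole lists by limma (17 at an unadjusted p under 0.05), 39 with equal covered length, 1 with an equal number of peaks, 407 after centring and 3 with no filter.

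Of the 9 genes, none passed within 3 kb with all 4 libraries. With a library left out, Lgr5 passed without either Kdm6b-cKO library and Rspo1 without WT replicate 7. There the pair left held equal values, 0 kb in both WT libraries at Lgr5 and 6 kb in both Kdm6b-cKO libraries at Rspo1, so passing carries no weight. Within 25 kb 1 passed, 3 after centring, 0 with equal covered length, an equal number of peaks (Rspo4 13.9 kb, adjusted p = 0.0584 by limma), the stricter q or no filter, and 0 to 1 with a library left out. Of 198 differences recomputed for single genes, 171 did not reverse and kept their side of the threshold, 7 no longer passed, 5 newly passed and 15 reversed. The 171 include Rspo1 and Rspo4 within 1 kb, whose differences of 0 kb have no direction. The 7 were all Rspo4 within 25 kb, the only difference that passed with whole lists. The other genes had no call to lose, so keeping their side of the threshold says little. Within 3 kb the reversed ones were Rspo3 (-0.284 kb) and Rnf43 (-0.632 kb) with equal covered length, Rnf43 (-1.06 kb) with an equal number of peaks, Rspo2 (-0.0369 kb), Rnf43 (-0.672 kb) and Znrf3 (-0.636 kb) after centring, and Rnf43 (-0.22 kb) without Kdm6b-cKO replicate 4, which reached 0.938 kb without Kdm6b-cKO replicate 3. Within 25 kb they were Rspo3 (-1.12 kb) and Rnf43 (-0.830 kb) with equal covered length, Rnf43 (-0.209 kb) with an equal number of peaks, Rspo2 (-2.75 kb), Rspo3 (-1.50 kb), Lgr5 (-1.79 kb) and Rnf43 (-2.64 kb) after centring, and Rspo3 (-2.09 kb) without WT replicate 9, which reached 7.204 kb without WT replicate 7. In the gene body, an alternative added after the data were seen, Lgr6 (-2.73 points, equal covered length) and Rspo2 (-0.0767 points without WT replicate 9, 0.380 points without WT replicate 7) reversed. Centring takes off the mean difference over all genes (1.03 kb within 3 kb, 4.06 kb within 25 kb), and trimming leaves fewer bases; other causes were not tested. Where a gene no longer passed the filter there is no value: Lgr5 at equal covered length and, within 3 kb, under the stricter q, Rnf43 under the stricter q, and Znrf3 within 3 kb under 5 settings. The lists hold no read counts, so a missing peak does not show that the mark is absent.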
